A study of Mus musculus with 14 samples.

Results

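Icam1 (intercellular adhesion molecule 1) and Vcam1 (vascular cell adhesion molecule 1) were followed by their gene symbols, as 2 of the 43472 gene rows listed in both deposited tables of normalised read counts. RNA was sequenced from primary fibroblasts of C57BL/6 mouse tail tips, grown in serum-containing medium and wounded with a scratch, in 14 libraries. Every culture, controls included, carried the scratch. The untreated groups received no micrograft and were collected at 1, 5, 12 and 24 h. The AMG-treated groups were exposed for the same times to an autologous micrograft (AMG), the filtered and cell-depleted extract of a mechanically disrupted mouse skin biopsy, diluted in growth medium. Replicate 1 gave 1 library per treatment at each of the 4 times (8 libraries), and replicates 2, 3 and 4 gave 1 library each per treatment at 5 h (6 libraries). The 2 tables were normalised separately, so levels were compared only within a table. The age of the mice, and whether a replicate number stood for 1 animal, 1 culture or 1 preparation of the extract, were not given in the sources used here, so p-values measure the spread between these libraries.

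Both genes encode membrane proteins with extracellular immunoglobulin domains to which circulating leukocytes attach. Icam1 is bound by the leukocyte integrins LFA-1 and Mac-1, and Vcam1 by integrins that contain the alpha4 chain, which the Itga4 gene encodes. On endothelium and on stromal cells such as skin fibroblasts, both are known to be induced by tumour necrosis factor and interleukin-1 through NF-kB transcription factors, and in injured tissue they contribute to the arrest, passage and retention of leukocytes.

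Icam1 (ENSMUSG00000037405.8) is a protein-coding gene on the plus strand of mouse chromosome 9, at chr9:21015985-21028817 in GRCm38 (mm10) by GENCODE M21. Its longest coding transcript is 2535 bp. The related genes Icam4 and Icam5 follow on the same strand, 556 and 3256 bp away. Vcam1 (ENSMUSG00000027962.14) is a protein-coding gene on the minus strand of chromosome 3, at chr3:116109949-116129688, with a longest coding transcript of 3469 bp. Each gene overlaps an annotated antisense gene (Gm47079 for Icam1 and Gm43109 for Vcam1) that has no row of its own in the tables. The strand setting of the counting was not given in the sources used here, so reads of each antisense partner cannot be told apart from those of Icam1 or Vcam1. A gene count also does not separate the full-length from the shorter membrane-anchored form of mouse Vcam1.

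The 250 bases before the RefSeq start of Icam1 are shown with those of Sele, the E-selectin gene, which was the adhesion gene with the largest fitted difference at 5 h, and of Icam5, the neighbouring family member whose level scarcely differed (values below). All 3 are from RefSeq on GRCm38.p6, on the plus strand, at chr9:21015690-21015939, chr1:164047984-164048233 and chr9:21031788-21032037. The promoter set used here held no window for Vcam1, so Vcam1 was not searched. Capitals mark each match to GGNNNTTCC, a kB-like motif, on either strand.
Icam1: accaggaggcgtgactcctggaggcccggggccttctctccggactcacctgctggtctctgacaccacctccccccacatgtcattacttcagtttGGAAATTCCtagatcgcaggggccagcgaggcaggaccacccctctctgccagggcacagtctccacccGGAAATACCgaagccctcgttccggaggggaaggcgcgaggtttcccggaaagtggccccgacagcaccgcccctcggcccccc
Sele: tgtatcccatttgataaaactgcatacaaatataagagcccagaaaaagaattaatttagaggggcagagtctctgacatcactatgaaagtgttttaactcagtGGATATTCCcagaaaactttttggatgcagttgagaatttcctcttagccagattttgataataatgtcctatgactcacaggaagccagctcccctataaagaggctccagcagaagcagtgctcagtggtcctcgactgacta
Icam5: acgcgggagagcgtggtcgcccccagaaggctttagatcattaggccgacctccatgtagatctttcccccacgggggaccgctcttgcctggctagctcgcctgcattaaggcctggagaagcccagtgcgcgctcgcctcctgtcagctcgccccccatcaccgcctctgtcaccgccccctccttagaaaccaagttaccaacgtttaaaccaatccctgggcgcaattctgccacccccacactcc
GGNNNTTCC occurred in 15.7% of the 32851 promoter windows of this length. The Icam1 window held it at 2 places. One lay 153 to 145 bases before the start and read as a match on both strands, and the other lay 84 to 76 bases before the start on the opposite strand. Sele held 1 match, 145 to 137 bases before its start, and Icam5 held none. Of the other motifs searched on both strands, a looser kB-like one (GGG, any 5 bases and CC, in 45.8% of windows) matched in all 3, once in Sele at a place that overlapped its GGNNNTTCC match. TTCNNNGAA (STAT-like, 7.02%) matched in Icam1 and Sele, and TGANTCA (AP-1-like, 6.75%) and TATAAA (12.4%) matched in Sele alone of the 3. An interferon-response-like motif (GAAA, any 2 bases and GAAA, 2.98%) matched in none of them. The window of Icam4, the nearer neighbour, held no GGNNNTTCC match and matched the looser kB-like motif. Sele and Icam5 were chosen by their values in these data, so the contrast between the windows is no test. A match describes the letters in these windows and is not evidence of a factor bound there.

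The libraries held 12545537 to 34696529 reads. Across genes, the treated to untreated ratio varied with transcript length, and the Spearman correlation with length in replicate 1 was -0.52 for the 1 h pair and 0.49 for the 5 h pair, against -0.44 to -0.22 in replicates 2 to 4. These correlations run over genes, which are not independent replicates. The untreated 5 h library of replicate 1 devoted 6.19% of its reads to 77 ribosomal protein genes, against 1.98% to 4.51% in the other 13 libraries. The part of these differences in the results was not tested beyond the length-corrected values given with them. Fibroblast markers were abundant throughout, with sums over 12 genes of 507632 to 707198 normalised counts in untreated and 428427 to 553074 in AMG-treated libraries of replicates 2 to 4. None of the 12 passed in limma or edgeR. In DESeq2 2 were lower, and the share of all genes lower there is not given here. With the replicate block 1 was higher and 7 lower, in a fit where 17.9% of all genes were higher and 19.3% lower. The endothelial markers Emcn and Cldn5, and the keratinocyte markers Krt5 and Krt14, were at 0 in all 6 of these libraries. Other members of these lists were not. The endothelial marker Tek reached 226 normalised counts in untreated replicate 3, and Egfl7 averaged 43.5 untreated and 57.1 treated. Trp63, a transcription factor of basal keratinocytes, was at 28.6, 8.35 and 41.6 untreated and 5.09, 0 and 2.26 treated (log2 difference -3.07, limma adjusted p = 0.129, with the block 0.00377). Sums over 10 keratinocyte markers were 25.1 to 75.9 untreated and 31.2 to 58.5 treated, and sums over 10 smooth muscle and pericyte markers 22980 to 26082 and 19779 to 22559. The latter list includes genes that fibroblasts also express, such as Cnn1.

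The 5 h comparison asked what the extract changed in wounded fibroblasts, with replicates 2 to 4. In the untreated cells Icam1 stood at 135, 217 and 46.5 normalised counts in replicates 2, 3 and 4. With AMG it stood at 1224, 667 and 810. The 2 groups did not overlap, and the lowest treated library exceeded the highest untreated one 3.07-fold. Separate groups with treated values higher were seen in 15.1% of the genes tested.

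Vcam1 started from a higher level, at 750, 1477 and 748 normalised counts in untreated replicates 2, 3 and 4. With AMG it stood at 3498, 2350 and 4193. These groups were separate as well, with a gap of 1.59-fold between the lowest treated and the highest untreated library. Replicate 3 held the highest untreated and the lowest treated value of both genes.

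**Figure D1:**
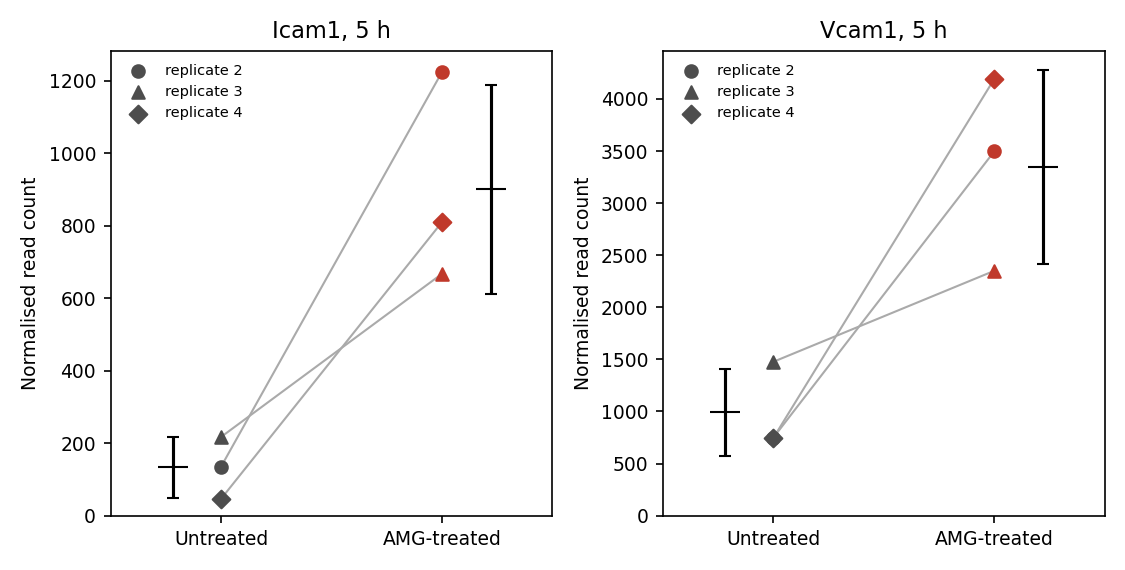
Normalised read counts of Icam1 (left) and Vcam1 (right) at 5 h in replicates 2 to 4. Each symbol is 1 library, grey lines join libraries with the same replicate number, and the horizontal bars with error bars give the mean and SD (n = 3). All treated libraries lie above all untreated ones, as in 15.1% of the genes tested, with the smallest step in replicate 3 for both genes.

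Means were 133 ± 85.4 untreated and 900 ± 289 treated for Icam1 (SD, n = 3), a 6.77-fold ratio, and 992 ± 421 and 3347 ± 930 for Vcam1, a 3.37-fold ratio. In limma on log2(normalised count + 1) over 13096 genes, the log2 difference was 2.96 (SE 0.55) for Icam1 and 1.79 (SE 0.33) for Vcam1. Neither passed in limma, with Benjamini-Hochberg adjusted p = 0.0584 and 0.0572, where 162 genes (1.24%) passed, 0.97% higher and 0.267% lower. The unadjusted p of each was under 0.05. With the replicate number as a block, which the pairing of the libraries allows, both passed in limma, at adjusted p = 0.000501 and 0.00164, in a fit where 37.2% of all genes passed, 17.9% higher and 19.3% lower. edgeR without the block gave adjusted p = 0.0734 and 0.0714, and DESeq2 gave 7.18e-06 and 4.20e-05, with 0.817% and 6.57% of genes called higher. Without AMG-treated replicate 3 both genes passed in limma (adjusted p = 0.0254 and 0.0163), and without untreated replicate 3 Vcam1 alone did (adjusted p = 0.0437). Groups without overlap and with treated values higher were seen in 15.1% of the genes tested. A larger fitted log2 difference than that of Icam1 was found for 86 genes and than that of Vcam1 for 231. In bulk RNA, a change in the number of cells of a type and a change in RNA per cell cannot be told apart.

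The spread between replicates was widest in untreated Icam1. Its values differed 4.67-fold between the highest and the lowest library, against 1.83-fold among treated ones. For Vcam1 these spans were 1.98-fold and 1.78-fold. Within replicates, AMG-treated Icam1 was 3.53-fold the untreated level in replicate 1 (95% counting interval 3.12 to 4.00), 9.05-fold in replicate 2 (7.49 to 11), 3.07-fold in replicate 3 (2.59 to 3.67) and 17.4-fold in replicate 4 (13.9 to 22.0). For Vcam1 these ratios were 2.67 (2.48 to 2.87), 4.66 (4.29 to 5.08), 1.59 (1.48 to 1.71) and 5.61 (5.27 to 5.97). All 4 replicates were above 1 for both genes, and the order of the replicates from smallest to largest ratio was the same for both: 3, 1, 2 and 4. The largest Icam1 ratio rested on 86 reads in its untreated library, the smallest number of any library. The intervals cover counting error alone, since the reads carried no molecular identifiers.

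Of replicates 2 to 4, replicate 4 had the largest Icam1 and Vcam1 ratios and also the highest counts of Lyz2. Lyz2 (lysozyme, a macrophage marker) stood at 158, 76.6 and 978 normalised counts in untreated and at 127, 95.9 and 916 in treated replicates 2, 3 and 4. Sums over the 14 leukocyte and macrophage markers ranged from 259 to 1814 in untreated and from 553 to 2095 in treated libraries, and the groups overlapped. Of the 11 markers tested, none passed in limma without the block or in edgeR. In DESeq2 1 was higher, where 6.57% of all genes were higher. With the block 1 marker, Cd14, was higher, at adjusted p = 3.17e-05, in a fit where 17.9% of all genes were higher. Cd14 encodes a lipopolysaccharide co-receptor, and fibroblasts can express it. Endothelial marker sums over 12 genes were 90.3 to 372 in untreated and 190 to 348 in treated libraries. The part of these cells in the Icam1 and Vcam1 counts was not tested.

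In replicate 1, with 1 library per treatment and time and therefore no test, Icam1 was followed from 1 to 24 h. Untreated cells held 552, 484, 737 and 870 normalised counts at 1, 5, 12 and 24 h. AMG-treated cells held 3438, 1705, 612 and 676. The treated to untreated ratio was 6.23-fold at 1 h (95% counting interval 5.69 to 6.82), 3.53-fold at 5 h, 0.83 at 12 h (0.751 to 0.918) and 0.777 at 24 h (0.708 to 0.853). The single Icam1 pairs were above their control at the 2 early times and below it at the 2 late ones. These intervals hold counting error alone, while untreated Icam1 differed 4.67-fold between replicates 2 to 4 at 5 h. The treated level at 12 h was 0.178 of that at 1 h, whereas the untreated level at 24 h was 1.58 times that at 1 h. Ordered by level, the untreated 5 h, untreated 1 h, treated 12 h, treated 24 h and untreated 12 h libraries each overlapped their neighbour in counting interval, and the untreated 24 h, treated 5 h and treated 1 h libraries stood above them, each apart from the next.

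Vcam1 took another course in the same libraries. Untreated cells held 2183, 1357, 2490 and 4503 normalised counts at 1, 5, 12 and 24 h. AMG-treated cells held 6642, 3618, 4413 and 5236. The ratio was 3.04-fold at 1 h (2.89 to 3.20), 2.67-fold at 5 h, 1.77-fold at 12 h (1.70 to 1.85) and 1.16-fold at 24 h (1.12 to 1.21), so the treated library was the higher one at all 4 times. Both series had their lowest value at 5 h, and from there the untreated level climbed to 2.06 times its 1 h value at 24 h, while the treated level reached 0.788 of its own. Only treated 12 h and untreated 24 h overlapped in counting interval among neighbouring levels.

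**Figure D2:**
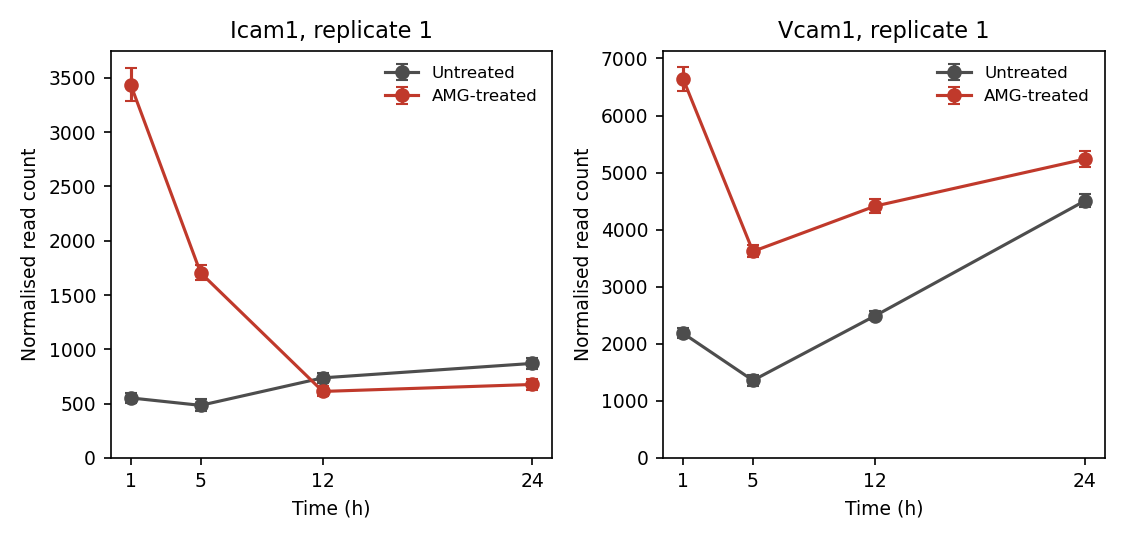
Normalised read counts of Icam1 (left) and Vcam1 (right) against time in replicate 1, 1 library per point, with 95% counting intervals as error bars. The treated Icam1 line starts at 3438 and meets the untreated line between 5 and 12 h, while the treated Vcam1 line stays above the untreated line at all 4 times.

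Set against the 13498 genes whose replicate 1 mean reached 10, the log2 ratio of Icam1 at 1 h (2.64) was exceeded by 102 genes and that of Vcam1 (1.60) by 473. At the 4 times in turn, 11.3%, 13.3%, 5.93% and 6.05% of genes had a log2 ratio above 1. Both genes were past that size at 1 and 5 h and neither was at 12 or 24 h, where the log2 ratios were -0.27 and -0.36 for Icam1 and 0.83 and 0.22 for Vcam1. A correction for transcript length moved the Vcam1 log2 ratio to 1.77 at 1 h and 1.30 at 5 h. The late Icam1 ratios lay at the percentiles 27.4 and 23.4 of all genes. In the same libraries Lyz2 was at 990, 1541, 899 and 871 normalised counts untreated and 962, 315, 336 and 266 treated at the successive times. Sums over the 14 leukocyte and macrophage markers were 1845, 2441, 1453 and 1398 untreated and 2467, 1145, 1293 and 1225 treated. Cd14 of that list went the other way, with log2 ratios of 2.27, 1.28, 2.49 and 2.99. Smooth muscle and pericyte marker sums were 23665, 24033, 13329 and 9826 untreated and 26566, 21530, 4742 and 1991 treated. The 12 fibroblast markers had median log2 ratios of -0.24, 0.03, -0.21 and -0.31, and single markers went in different directions. Col1a1, a collagen chain of fibroblasts, had -1.07, 0.38, -0.97 and -1.67, and Dcn had 0.39, -0.22, 1.12 and 2.45. The part of these differences in the Icam1 and Vcam1 time courses was not tested.

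**Figure D3:**
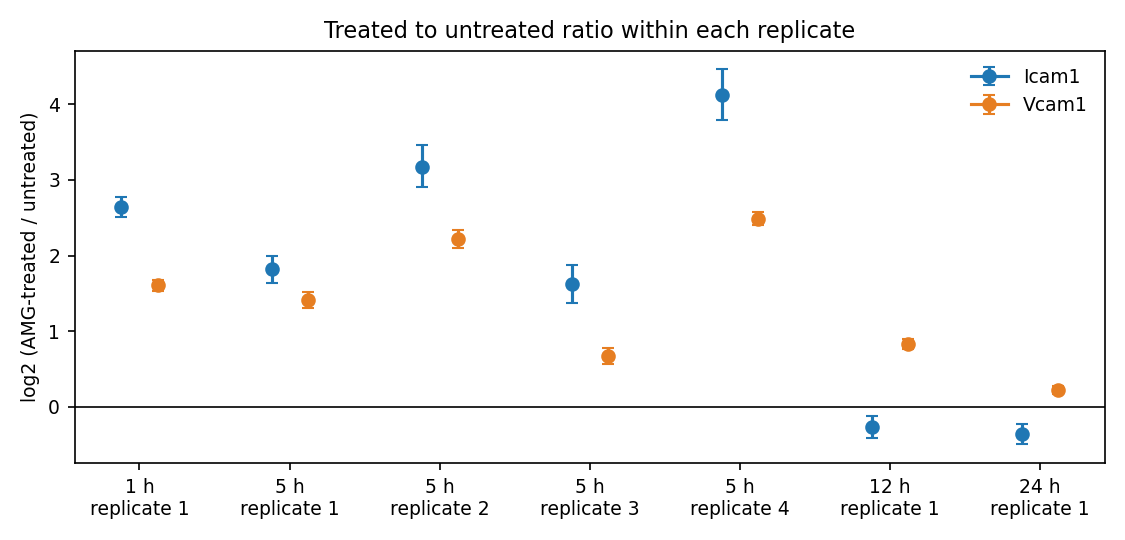
Log2 ratio of AMG-treated to untreated normalised counts for Icam1 (blue) and Vcam1 (orange) in each replicate and time, with 95% counting intervals as error bars. Icam1 lies above Vcam1 at 1 h and in all 4 replicates at 5 h, and below Vcam1 at 12 and 24 h.

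Whether the 2 genes responded unequally was tested with the log2 ratio of Icam1 to Vcam1 normalised counts within each 5 h library, which is free of the scaling of a library and so could use all 4 replicates. It was -2.67 ± 1.03 in untreated and -1.70 ± 0.54 in AMG-treated libraries (SD, n = 4), a difference of 0.98. The ratio was higher with AMG in 4 of 4 replicates, by 0.40 to 1.61. The groups overlapped, and an exact two-sided permutation test gave p = 0.143, where the smallest p possible was 0.0286. The paired differences averaged 0.98 ± 0.49 (SD, n = 4). An exact sign-flip test over 4 pairs cannot go below p = 0.125, the value it gave, and so could not pass whatever the data. At 12 and 24 h in replicate 1 the direction was opposite, with log2 ratios of -1.76 untreated and -2.85 treated at 12 h and -2.37 and -2.95 at 24 h.

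Per transcript length, Vcam1 was the more abundant in all 14 libraries, by 1.41-fold in the treated 1 h library of replicate 1 to 11.7-fold in untreated replicate 4. In counts per kb of transcript, Icam1 stood at 52.5 ± 33.7 in untreated and 355 ± 114 in treated replicates 2 to 4, and Vcam1 at 286 ± 121 and 965 ± 268 (SD, n = 3). Among the protein-coding genes detected in a library, this placed Icam1 between the percentiles 28.8 and 81.1 in replicates 2 to 4 and between 60.8 and 89.5 in replicate 1. Vcam1 lay between 66.5 and 91.7 and between 73.9 and 93.7. In the untreated 5 h libraries Icam1 lay at the percentiles 60.8, 38.3, 44.3 and 28.8 in replicates 1, 2, 3 and 4. Icam1 of untreated replicate 4 was the lowest of these placements.

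**Figure D4:**
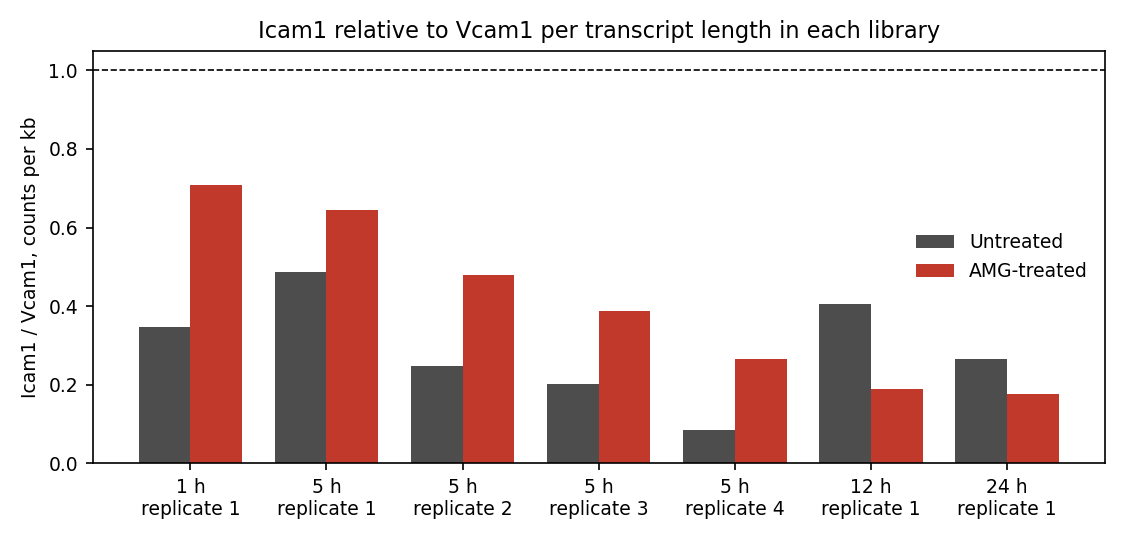
Ratio of Icam1 to Vcam1 in normalised counts per kb of transcript, in 1 bar per library, untreated in grey and AMG-treated in red. All 14 bars lie below 1, treated bars are taller at 1 h and in all 4 replicates at 5 h, and shorter at 12 and 24 h.

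In a list of Icam1, Vcam1 and related immunoglobulin-type adhesion molecules, those 2 genes were the ones with large positive differences at 5 h. Of the 11 genes listed, 7 were tested and 0 passed in limma. In DESeq2 2 were higher and 1 lower, and none passed in edgeR. In DESeq2 6.57% of all genes were higher, and the share lower is not given here. With the replicate block, 2 were higher (Icam1 and Vcam1) and 2 lower, against 17.9% and 19.3% of all genes. The lower ones were Ncam1, a neural cell adhesion molecule also made by mesenchymal cells (log2 difference -0.72, limma adjusted p = 0.0837, with the block 0.00115), and L1cam (-0.98, adjusted p = 0.511, with the block 0.0029). The leukocyte-binding relatives Icam2, Icam4 and Madcam1 were near absent. Icam2 had counts in 1 of 6 libraries, at 7.63 normalised counts, Icam4 was at most 3.30 and Madcam1 at most 1.64. Icam5, directly downstream of Icam1, stood at 24.2, 27.8 and 27 untreated and 21.6, 28.7 and 28.2 treated (log2 difference -0.02). Alcam, a ligand of CD6, was at 187 to 523 normalised counts untreated and 127 to 421 treated (log2 difference -0.32, SE 0.57). The median over the 7 genes was -0.27, against -0.02 over all genes tested. Esam and Pvr, adhesion molecules placed in the junctional list below, also had positive differences (1.66 and 1.04).

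Integrin subunits that bind Icam1 or Vcam1 ranged from near absent to abundant in these cultures. Of the 9 subunits listed, 6 reached the level needed for testing. None passed in limma with or without the block, in edgeR or in DESeq2, and none had an unadjusted p under 0.05. Itgb2, the beta chain of LFA-1 and Mac-1, was at 2.20, 9.75 and 57.3 normalised counts untreated and 5.09, 13.1 and 35.0 treated, with replicate 4 again the highest in each group. Itga4 was at 27.5, 48.7 and 34.1 untreated and 15.3, 41.0 and 28.2 treated. Itgb1, a subunit of the fibroblast matrix receptors as well, was at 38020 to 51441 untreated and 34838 to 41938 treated (log2 difference -0.29, SE 0.18). Itga9, whose integrin also binds Vcam1, averaged 297 ± 130 untreated and 322 ± 118 treated (SD, n = 3). Itgb7, the other partner of Itga4, averaged 24.5 and 21.8 at 5 h, and in the single 24 h libraries of replicate 1 it was at 25.3 untreated and 274 treated. The list had a median log2 difference of -0.21.

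Selectins mediate the first, rolling contact of leukocytes, and 10 selectin and selectin-ligand genes were listed. Of 5 tested, only Sele passed in limma, and it was higher, as were 0.97% of all genes. It averaged 2.20 normalised counts untreated and 41.0 treated. Sele thus met the filter of 10 only through the AMG-treated libraries, and a call in the other direction was hardly possible. Sele counted 2, 2 and 3 reads in untreated replicates 2, 3 and 4, or 2.20, 2.78 and 1.62 normalised counts, and 62.3, 22.1 and 38.4 normalised counts with AMG. The ratios within replicates were 28.3 (95% counting interval 7.44 to 241), 7.95 (2.00 to 69.0) and 23.7 (7.44 to 120). The limma log2 difference was 3.61 (SE 0.57, adjusted p = 0.0414), a value that depends on the pseudocount because the untreated counts were at or below 3 reads. In replicate 1, Sele rested at 5.27, 0, 19.0 and 15.3 normalised counts untreated and 3778, 206, 79.1 and 61.2 treated at 1, 5, 12 and 24 h. The 1 h ratio was 717 (329 to 1955), and at 5 h, with no untreated read, Sele was at least 41.8-fold higher against a floor of 3 reads. Selp (P-selectin) did not exceed 5.09 normalised counts in replicates 2 to 4. In replicate 1 it was at 6.15, 0, 5.12 and 7.66 untreated and 36.5, 32.5, 10.5 and 7.20 treated at the successive times.

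Of the selectin ligands, Cd44, Glg1 and Cd24a passed with the block. Cd44, the hyaluronan receptor, had a log2 difference of 0.59 (limma adjusted p = 0.216) and was higher with the block (adjusted p = 0.00371). Glg1, a Golgi protein that can carry E-selectin ligands, had -0.73 (adjusted p = 0.0786, with the block 0.00181), and Cd24a, a small glycoprotein ligand of P-selectin, -1.97 (adjusted p = 0.132, with the block 3.90e-05). The median of the 5 tested was 0.22, and 2 were higher and 2 lower with the block, against 17.9% and 19.3% of all genes.

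Of 10 tested junctional and transmigration genes, 1 passed in limma, 0 in edgeR and 3 in DESeq2. In those fits 0.97%, 0.817% and 6.57% of all genes were higher. With the block, 4 were higher and 1 lower, against 17.9% and 19.3% of all genes. Pvr, the poliovirus receptor homologue that binds DNAM-1 on leukocytes, rose from 2031, 2515 and 1686 to 4743, 3896 and 4091 normalised counts in replicates 2, 3 and 4 (log2 difference 1.04, SE 0.17, limma adjusted p = 0.0478). Esam, an adhesion molecule of endothelial junctions, was at 44.0, 54.3 and 39.5 untreated and 183, 155 and 110 treated (1.66, SE 0.28, adjusted p = 0.0514, with the block 0.000892). Cx3cl1 (fractalkine, a membrane-bound chemokine that also tethers leukocytes) was at 1063, 870 and 1095 untreated and 4082, 1794 and 7504 treated (1.92, SE 0.47, adjusted p = 0.0959, with the block 0.000708). Treated values that all lay above the untreated ones were seen in 15.1% of the genes tested, among them Esam and Cx3cl1. In replicate 1 both had log2 ratios near 0 at 1 h (-0.17 and 0.01) and of 1.71 and 1.52 at 5 h, whereas Icam1 and Vcam1 had their largest ratio at 1 h. Pecam1 and Cdh5, the defining molecules of endothelial junctions, did not exceed 4.52 and 14.7 normalised counts in these 6 libraries.

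**Figure D5:**
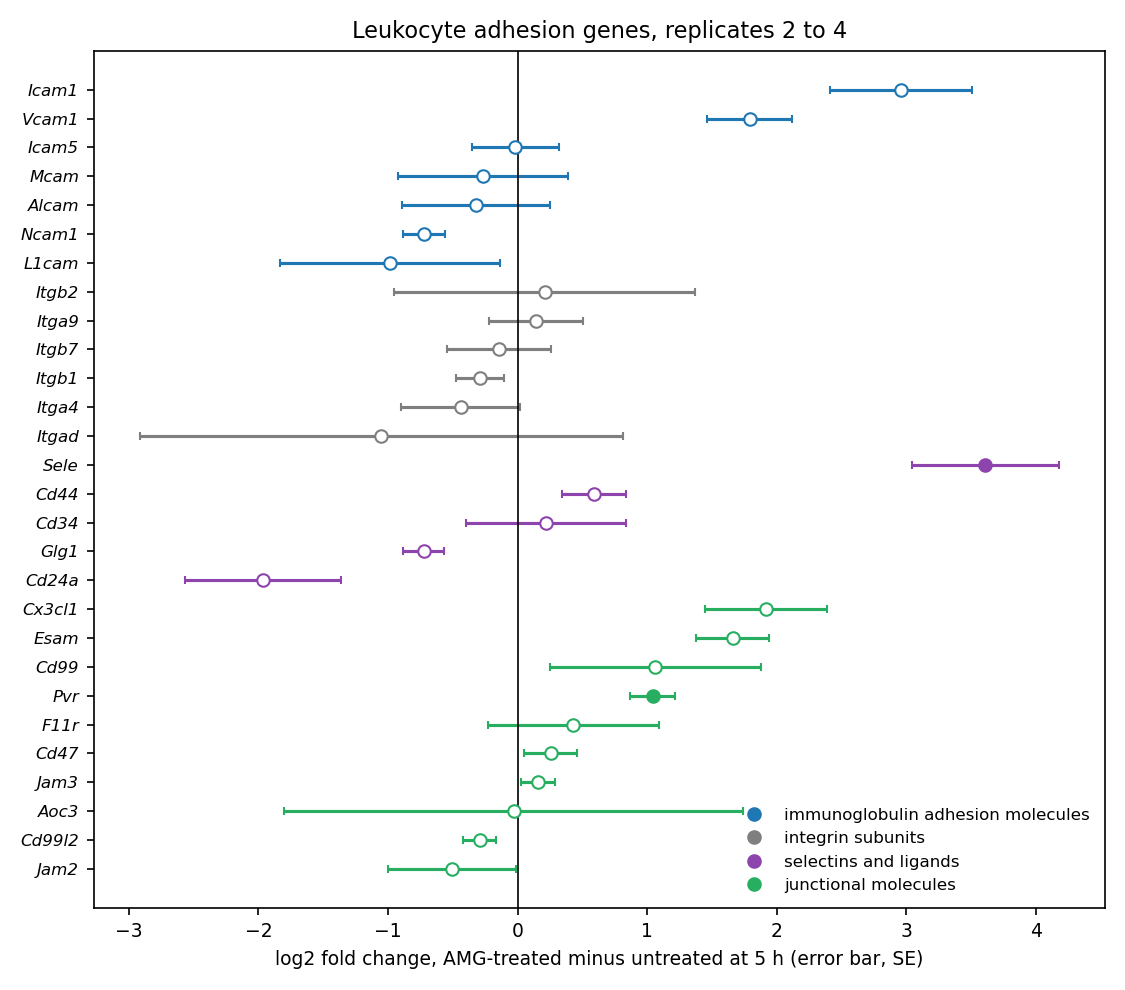
Limma log2 difference between AMG-treated and untreated libraries at 5 h in replicates 2 to 4, with SE as error bars, for the tested genes of 4 lists, each list in 1 colour. Filled symbols passed at an adjusted p under 0.05 without the replicate block, which were Sele and Pvr. Icam1 at 2.96 and Vcam1 at 1.79 stand apart within their own list, whose other genes lie at or below 0. Esam at 1.66 and Pvr at 1.04, plotted with the junctional molecules, lie above 0 as well.

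Another list held transcripts of proteins that bind the cytoplasmic tails of Icam1 and Vcam1 or that shed surface proteins. Of 12 tested, 0 passed in limma and edgeR, and 1 higher and 3 lower passed in DESeq2. In DESeq2 6.57% of all genes were higher, and the share lower is not given here. With the block, 3 were higher and 6 lower, against 17.9% and 19.3% of all genes. Ezr (ezrin, which links Icam1 and Vcam1 to actin) was at 146, 184 and 516 untreated and 534, 383 and 1253 treated (log2 difference 1.40, adjusted p = 0.215, with the block 0.000423). Rhog, a GTPase of the endothelial cups that form around adherent leukocytes, had a difference of 0.99 (adjusted p = 0.0594, with the block 0.000877). The sheddases were among the lower ones with the block: Adam10 at -0.56 (adjusted p = 0.00634) and Adam9 at -0.52 (adjusted p = 0.00536). Adam17, which sheds both Icam1 and Vcam1, had -0.26 and did not pass with the block (adjusted p = 0.0614). The list median was -0.33.

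The longest list held receptors and transcription factors known to act on Icam1 and Vcam1. Of 26 tested, 5 passed in limma, 5 in edgeR and 10 in DESeq2, all higher. In those fits 0.97%, 0.817% and 6.57% of all genes were higher. With the block 13 were higher and 4 lower, against 17.9% and 19.3% of all genes, and the list median was 0.43. Nfkbia, the inhibitor IkB-alpha and itself an NF-kB target, rose from 307, 315 and 322 to 5746, 2006 and 7230 normalised counts in replicates 2, 3 and 4 (log2 difference 3.79, SE 0.45, limma adjusted p = 0.0196). The subunits Nfkb1 (1.82, adjusted p = 0.0211), Nfkb2 (1.5, adjusted p = 0.0414) and Relb (2.09, adjusted p = 0.0491) rose as well, as did Fosl1, the AP-1 subunit Fra-1 (1.37, adjusted p = 0.019). Rela had a smaller difference of 0.67 (adjusted p = 0.074, with the block 0.00214), and Rel, at 10.2 to 52.9 normalised counts, one of -1.06. Replicate 3 had the smallest treated level of Nfkbia, Nfkb1, Nfkb2, Relb and Fosl1, as it had of Icam1 and Vcam1.

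For other factors the replicates or the times gave different values, with no test between them. Cebpb had a log2 difference of 2.27 at 5 h in replicates 2 to 4 (limma adjusted p = 0.074, with the block 0.000984) and log2 ratios of 2.54 at 1 h and -0.41 at 5 h in replicate 1. Irf1, an interferon-regulatory transcription factor, had a log2 ratio of 3.77 at 1 h in replicate 1 and of -0.52, -0.13 and -0.62 at the 3 later times, and a difference of -0.58 at 5 h in replicates 2 to 4. Among receptors, the tumour necrosis factor receptor Tnfrsf1a had -0.15 (adjusted p = 0.433), Tnfrsf1b 0.88 (adjusted p = 0.195, with the block 0.00717) and the interleukin-1 receptor Il1r1 0.57 (adjusted p = 0.305, with the block 0.00409). The 7 list genes that passed in limma without the block (Sele, Pvr, Nfkbia, Nfkb1, Nfkb2, Relb and Fosl1) all passed with it and when AMG-treated replicate 3 was left out. Without untreated replicate 3, 1 of 7 passed, and 0 of 7 passed when untreated replicate 2 or 4 or AMG-treated replicate 2 or 4 was left out, and all 7 stayed higher in each case.

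The genes most like each member were ranked by the smaller of 2 Pearson correlations of log2(normalised count + 1), over the 8 libraries of replicate 1 and over the 6 of replicates 2 to 4, among 12843 genes. These libraries share the treatment, times and depths, so the correlations are descriptions. For Icam1 they were Birc2 (smaller correlation 0.92), Tnfrsf8 (0.88), Sele (0.88), Stx11 (0.87) and Tnfaip3 (0.87). Birc2 encodes the ubiquitin ligase cIAP1, Tnfrsf8 the receptor CD30, Stx11 the SNARE protein syntaxin-11 and Tnfaip3 the ubiquitin-editing enzyme A20. Birc2, the gene ranked highest, had a log2 difference of 0.22 at 5 h in replicates 2 to 4 (limma adjusted p = 0.376, with the block 0.171) and log2 ratios of 1.26, 0.31, 0.02 and -0.41 at the successive times of replicate 1. Those ratios ran, for Tnfrsf8, 2.51, 2.47, 0.92 and 0.29, for Tnfaip3, 5.42, 4.12, 1.14 and 1.69, and for Stx11, 3.07, 1.86, 0.82 and 0.47.

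For Vcam1 the leading genes were Bcl3 (0.97), Ccl2 (0.90), Bcl2l11 (0.88), Nfe2l2 (0.87) and Rrad (0.86). Bcl3 encodes a nuclear IkB protein, Ccl2 a monocyte-attracting chemokine, Bcl2l11 the cell-death protein Bim, Nfe2l2 the transcription factor Nrf2 and Rrad a small GTPase. Bcl3 had log2 ratios of 1.93, 2.52, 0.95 and 0.98 at 1, 5, 12 and 24 h, and Ccl2 4.11, 3.49, 3.14 and 2.74. No gene was among the 5 of both members. Icam1 and Vcam1 correlated at 0.94 over the 6 libraries at 5 h and at 0.64 over the 8 libraries of the time course, and Vcam1 was at rank 206 for Icam1 and Icam1 at rank 145 for Vcam1.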

How the data were processed

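Total RNA was made into libraries with a stranded mRNA kit and sequenced on an Illumina instrument. Per the submitters' processing notes, FastQC 0.11.5, TopHat2 2.0.13, SAMtools 0.1.19.24, HTSeq 0.5.3p3 and DESeq were used with the mm10 build; the annotation release and strand setting are not given in the sources used here. The authors deposited, per table, a normalised signal, which is the read count of each gene divided by the library's size factor. Division by the smallest step returned whole reads for 100% of values (tolerance 0.1), from which depths, counting intervals and the edgeR and DESeq2 fits were made. Intervals and floors cover counting error only.

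Genes averaging 10 or more normalised counts were fitted with limma 3.58.1 (R 4.3.3, trend, log2 of the value plus 1), and with edgeR 4.0.16 and DESeq2 1.42.0 as alternatives. The limma and edgeR fits, with and without the block, and the DESeq2 fit were run on simulated counts. The simulation used a single dispersion and no replicate effect, so it does not cover the spread of these libraries. The other alternatives were not simulated. Adjusted p-values are by Benjamini-Hochberg over all genes tested, with 0.05 as threshold. Deviations from the group means correlated at 0.65, 0.76 and 0.70 between libraries of the same replicate number and at -0.59 to 0.12 between different numbers, which was taken as pairing. Lengths are of the longest coding transcript in GENCODE M21. Genes were named as members, as list genes past the threshold, as list genes with a direct role, and as the 5 most like each member. Emr1 is the tables' symbol for Adgre1. Members and lists were chosen with earlier results of these data known.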

Additional observations from a re-analysis of the deposited data

Results flagged for a closer look

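Icam1 lay below its untreated control in replicate 1 at 12 h (log2 ratio -0.27) and at 24 h (-0.36), whereas at 5 h all 4 replicates lay above theirs. Each late time had 1 library per treatment, and the difference between times was not tested. Among 4 groups of 4 values examined for a value far from the other 3 (the ratio of Icam1 to Vcam1 in untreated and in treated libraries, and the 5 h ratio of each gene), none was found.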

How the results depend on the processing

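Icam1 and Vcam1 kept a positive difference at 5 h under all 13 alternatives (2.67 to 2.97 and 1.70 to 1.86 on the log2 scale) but did not keep their side of the threshold, with adjusted p from 7.18e-06 to 0.0964 and from 4.20e-05 to 0.0964. Differences with a call gained were 2.96 and 1.79 with all genes above 0 tested (adjusted p = 0.0488 and 0.0476) and with the replicate block, 2.77 and 1.76 in DESeq2, 2.95 and 1.81 in edgeR with the block, 2.67 and 1.70 in limma on 4 replicates with the block (adjusted p = 0.0234 and 0.0367), and 2.93 and 1.86 with the length correction and the block. Leaving out 1 library gave 2.34 to 3.44 (adjusted p 0.0254 to 0.234) and 1.61 to 2.12 (0.0163 to 0.238).

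Genes higher with a log2 difference above 1 numbered 112 and genes lower 32. With the replicate block, which uses the pairing, they numbered 530 and 560, in edgeR with the block 560 and 542, on 4 replicates with the block 283 and 138, with the length correction and the block 511 and 391, and in DESeq2 347 and 230. Without the trend 56 were higher. Leaving out 1 library gave 1 to 447 and 0 to 511. The cause of these changes was not tested.

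The difference in the log2 ratio of Icam1 to Vcam1 was 0.89 to 1.17 under 5 alternatives (p 0.10 to 0.171) and 0.54 to 1.37 without 1 library (p 0.0571 to 0.286). These p-values are by exact permutation, or by sign flips for the paired alternative. No p below 0.0571 was possible without 1 library, and none below 0.10 with replicates 2 to 4 alone. Those fits could not pass whatever the data. In replicates 2 to 4 alone the lowest treated ratio was -2.37 and the highest untreated one -2.46. The length correction moved Vcam1 in replicate 1 to 1.77 at 1 h and 1.30 at 5 h and moved no other replicate 1 ratio by more than its counting interval. Icam5 changed sign in edgeR (0.0021) and DESeq2 (0.00059) and without 1 library (-0.087 to 0.11), and Alcam without AMG-treated replicate 2 (range without 1 library -0.77 to 0.25). Replicate 1 had 1 library per treatment and time, so its ratios have no replicate check.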
